A study of Homo sapiens with 4 samples.

Results

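The IFIT and IFI genes together with RSAD2 form a group of 10 interferon-induced effector genes (IFIT1, IFIT2, IFIT3, IFIT5, IFI6, IFI27, IFI35, IFI44, IFI44L and RSAD2), which were followed here in MV4-11 cells with CEBPG knockdown. The genes were chosen by name with their higher values in the knockdown libraries already known. Those values are thus given as a description, and the fits to them below are no independent test of a rise. All 10 genes are listed in the deposited table, with 21 RefSeq transcript rows of 28780, and 20 of these rows carry values. After the rows of each gene were summed, they made up 10 of 16490 genes.

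MV4-11 is a human acute myeloid leukemia (AML) cell line. RNA-seq was performed on 2 libraries of cells carrying the control hairpin (sh-NC, the cells in which CEBPG is present) and 2 libraries of cells carrying sh-CEBPG#3, a short hairpin RNA against CEBPG, a leucine-zipper transcription factor of the C/EBP family. The CEBPG hairpin was carried by a lentiviral pLKO.1-puro vector, and puromycin was used to keep the transduced cells. The vector of the control hairpin is not given in the sources used here. A single CEBPG hairpin was sequenced, so an effect of this hairpin and an effect of lower CEBPG cannot be told apart. No source used here says whether a group stands for independent infections.

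Type I interferons signal through the IFNAR1 and IFNAR2 receptor chains to the kinases JAK1 and TYK2. These lead to the assembly of ISGF3, a complex that holds STAT2 and IRF9 and binds the interferon-stimulated response element (ISRE) in the promoters of its target genes. The IFIT proteins are built from tetratricopeptide repeats and bind viral RNA or other IFIT proteins, RSAD2 (viperin) is a radical SAM enzyme that makes a chain-terminating nucleotide, and IFI6 and IFI27 are small hydrophobic membrane proteins.

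Promoter windows were examined first, because the ISRE is the element that interferon-induced genes share. RefSeq windows on GRCh38.p14 that run from 250 bases before to 50 bases after a start site were available for 9 of the 10 genes, IFIT2 being the one without a window. The ISRE core was searched on both strands as GAAANNGAAA, and it was found in a window of 8 of these 9 genes. Among all 27305 genes with a window, 4.38% held the core in at least one window. The 10 genes were chosen as interferon-induced and the search reads the genome alone, so this contrast says nothing about these libraries. For each of the 8 genes the core nearest to a start site and wholly upstream of it is shown with 10 bases on either side, on the strand on which it reads in this direction, and the core is in capitals.
IFIT1: gaaacctaggGAAACCGAAAggggaaagtg
IFIT3: aaggggaaagGAAAGTGAAActgatggaac
IFIT5: tgaaacttaaGAAATCGAAActaaacgtaa
IFI6: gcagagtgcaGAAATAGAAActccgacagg
IFI27: cggtttcctgGAAAATGAAAcctatctcat
IFI44: tcagagaaagGAAACTGAAActcagtgtgc
IFI44L: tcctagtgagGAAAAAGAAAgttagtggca
RSAD2: ttccacatgtGAAACTGAAAgttgaaacag

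The cores shown for IFIT1 (chr10:89392510-89392539), IFIT3 (chr10:89332468-89332497) and IFIT5 (chr10:89414539-89414568) lie on the minus strand of chromosome 10, opposite to the genes. The coordinates are those of the whole stretch shown, and 93, 41 and 9 bases separate the cores from the start site, for IFIT3 the second of its start sites. That of IFI6 (chr1:27672266-27672295) lies on the minus strand, which is the strand of the gene, 83 bases before the start. IFI44 (chr1:78649761-78649790, minus strand, 8 bases) and IFI44L (chr1:78620365-78620394, plus strand, 63 bases) lie beside each other on chromosome 1. For IFI44 the distance is to the first of its start sites with a window. The core of IFI27 (chr14:94110631-94110660) is on the plus strand, 85 bases before the first of its start sites with a window. That of RSAD2 (chr2:6877622-6877651) is on the minus strand 135 bases before the second of its start sites. IFIT5 and IFI6 held 3 cores each in their single window, and IFIT3 held 2 in each of its 2 separate windows. A core of IFIT5 that is not shown spans its start site.

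IFI35 had no ISRE core in its window, which says only that these letters are absent there. The gamma-activated site (GAS), searched as TTCNNNGAA, was found for IFI27 and IFI35, 2 of 9 genes, and in 9.38% of all genes. The C/EBP palindrome TTGCGCAA (0.172% of all genes) and the C/EBP-ATF composite element TGATGCAA (1.08%) were found in none of the 9 genes. At such shares most sets of 9 genes would hold neither element, so their absence here decides nothing about CEBPG binding. These searches were made on both strands, and a match describes the letters and not a bound site.

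The table holds FPKM values (fragments scaled to transcript length and library size), so levels of different genes can be set side by side. The 4 libraries summed to between 364353 and 389766 FPKM, and their read depth is unknown since the values carry no counts. CEBPG itself was lower in the knockdown, with 19.2 and 17.1 FPKM against 30.4 and 33.6 FPKM in the control (log2 difference -0.78, adjusted p = 8.88e-05 in limma). The ratio of the means was 0.568, and a log2 difference of -1 was not reached. All 8 markers of the leukemic myeloid cells were above 1 FPKM in every library. Of 14 markers of other blood or epithelial cells, 5 were listed and 2 of these, PAX5 and NKG7, were above 1 FPKM in every library. NKG7, a marker of NK cells, had 42.2 and 42.3 FPKM in sh-NC cells and 53.4 and 55.8 FPKM in sh-CEBPG#3 cells (log2 difference 0.36, adjusted p = 0.00265 in limma). PAX5, a marker of B cells, had 1.96 and 2.21 FPKM and then 1.32 and 1.46 FPKM (-0.37, adjusted p = 0.0301 in limma). The markers CD3D and CD3E of T cells, MS4A1 of B cells, KLRD1 of NK cells and HBB of erythroid cells were not listed. Neither were PF4 of megakaryocytes, CLEC4C of plasmacytoid dendritic cells, and EPCAM and KRT19 of epithelial cells. The myeloid markers summed to 892 and 970 FPKM in sh-NC cells and 3547 and 3373 FPKM in sh-CEBPG#3 cells. LYZ (lysozyme) carried most of this difference and was the one marker of the 8 called higher. Without reaching a log2 difference of 1, MPO (0.62, adjusted p = 0.00019 in limma), CD33 (0.37, adjusted p = 0.00424) and SPI1 (0.33, adjusted p = 0.00732) also rose. MEIS1 (log2 difference -0.87, adjusted p = 8.31e-05 in limma) and HOXA9 (-0.36, adjusted p = 0.0167), transcription factors of leukemic cells, fell, and neither was called lower. FLT3 (-0.14, adjusted p = 0.161 in limma) and PTPRC (0.21, adjusted p = 0.123) did not pass. The other markers summed to 44.5 and 45.0 FPKM in sh-NC cells and to 54.9 and 57.6 FPKM in sh-CEBPG#3 cells, mostly from NKG7. These sums moved with the levels described next, and their part in them was not tested.

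For each of the 10 genes both knockdown values exceeded both control values, a pattern that 31.5% of the 12142 genes tested showed. Together the 10 genes made up 0.00500% and 0.00481% of the FPKM total in sh-NC cells and 0.110% and 0.111% in sh-CEBPG#3 cells. Their sum was 18.2 and 18.7 FPKM against 428 and 418 FPKM. IFI6 held 10.9% and 11.1% of this sum in sh-NC cells and 63.3% and 63.2% in sh-CEBPG#3 cells, while the 4 IFIT genes held 19.2% and 19.0% and then 22.5% and 22.1%. In bulk RNA a larger share of expressing cells and more RNA per cell cannot be told apart.

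**Figure D1:**
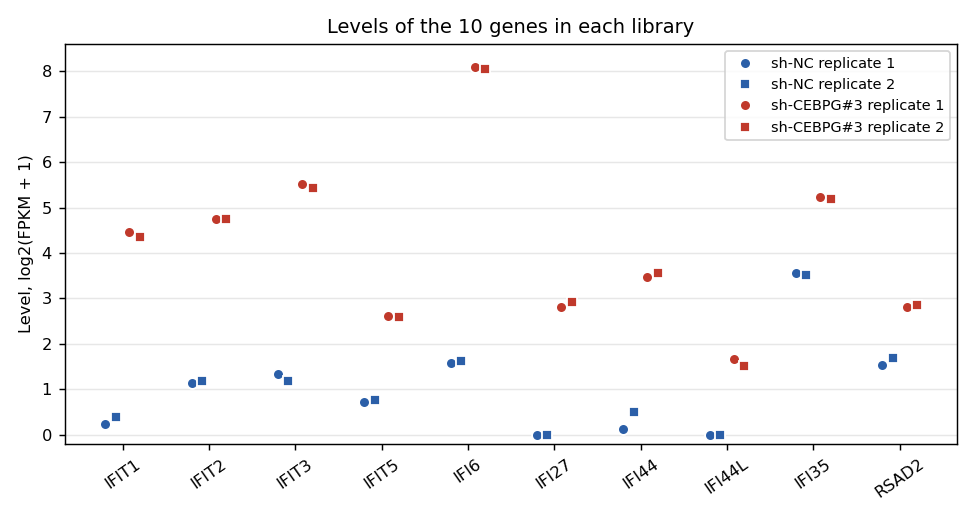
Level of each gene in each library as log2(FPKM + 1), in blue for sh-NC and red for sh-CEBPG#3, with circles for replicate 1 and squares for replicate 2. The libraries of a group lie close together and the groups do not overlap for any of the 10 genes, with IFI6 highest in sh-CEBPG#3 cells and IFI35 highest in sh-NC cells.

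Limma on log2(FPKM + 1) over all genes averaging 0.5 FPKM or more called 2.33% of them higher (adjusted p under 0.05 by Benjamini-Hochberg and a log2 difference above 1) and 1.04% lower. All 10 genes were among those called higher and none among those called lower, which the choice of the genes had fixed in advance. IFIT1, IFI27, IFI44 and IFI44L had means below 0.5 FPKM in sh-NC cells and passed the filter only through the sh-CEBPG#3 libraries. The median log2 difference of the 10 genes was 3.03, and that of all genes tested was -0.038. On this scale the differences of low genes are compressed. With a pseudocount of 0.01 FPKM in place of 1, the median was 5.30, and IFI27 and IFI44L, listed at 0 in both sh-NC libraries, moved from 2.87 to 9.30 and from 1.60 to 7.66.

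IFI6, which sits in mitochondrial and endoplasmic reticulum membranes, had 1.99 and 2.07 FPKM in sh-NC cells and 271 and 264 FPKM in sh-CEBPG#3 cells. The means were 2.03 ± 0.0535 FPKM and 268 ± 4.77 FPKM (SD, n = 2), a ratio of 132. Its log2 difference of 6.47 (standard error 0.074) was the largest of all genes tested with a pseudocount of 1 FPKM. With 0.01 FPKM it was 7.03, below those of IFI27 and IFI44L. The related IFI27 was listed at 0 in both controls and had 6.02 and 6.60 FPKM in sh-CEBPG#3 cells, so no fold is given. Of all 16490 genes, 1.59% were listed at 0 in both sh-NC libraries.

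The 4 IFIT genes differed in size of response. IFIT1, which binds RNA whose cap lacks 2′-O-methylation, had 0.171 and 0.309 FPKM in sh-NC cells and 20.9 and 19.5 FPKM in sh-CEBPG#3 cells (log2 difference 4.10, standard error 0.10). IFIT3, a partner that stabilizes IFIT1, went from 1.51 and 1.26 FPKM to 44.9 and 42.2 FPKM (4.22, standard error 0.092), and the ratio of the means was 31.4. IFIT2, which also forms complexes with IFIT1 and IFIT3, had 1.19 and 1.28 FPKM and then 25.76 FPKM in each library (3.58, standard error 0.088), a ratio of 20.9.

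IFIT5, an IFIT that binds RNA on its own, had the smallest change of the 4, from 0.635 and 0.707 FPKM to 5.10 and 5.06 FPKM (1.86, standard error 0.11), a ratio of 7.57. The makeup of the IFIT sum differed between the groups accordingly. IFIT5 held 18.1% and 19.9% of it in sh-NC cells and 5.27% and 5.47% in sh-CEBPG#3 cells. IFIT1 went the other way, from 4.86% and 8.69% to 21.6% and 21.1%. IFIT3 held 43.1% and 35.5% in sh-NC cells and 46.4% and 45.6% in sh-CEBPG#3 cells, and the lower sh-CEBPG#3 value differs from the higher sh-NC value by less than the sh-NC libraries differ from each other.

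IFI44 and IFI44L, paralogs that lie side by side on chromosome 1, differed in level. IFI44 had 0.0947 and 0.417 FPKM in sh-NC cells and 10.2 and 10.7 FPKM in sh-CEBPG#3 cells, a ratio of 40.8 between the means. Its sh-NC values differed from each other several-fold, so this ratio rests on imprecise values, but the lowest sh-CEBPG#3 value was 24.3 times the highest sh-NC value. IFI44L, listed at 0 in both sh-NC libraries, had 2.19 and 1.86 FPKM in sh-CEBPG#3 cells, the lowest level of the 10 genes there.

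IFI35, a protein that associates with NMI, stood apart through its control level of 10.8 and 10.4 FPKM, the highest of the 10 genes in sh-NC cells. In sh-CEBPG#3 cells it had 36.4 and 35.7 FPKM (log2 difference 1.68, standard error 0.077), a ratio of 3.41. RSAD2 had 1.88 and 2.25 FPKM and then 6.02 and 6.25 FPKM (1.22, standard error 0.11). Its ratio of 2.98 was the smallest among the 8 genes with values above 0 in both sh-NC libraries, although its sh-NC level overlapped that of IFI6, whose ratio was the largest.

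The order of the genes by level changed between the groups. In sh-NC cells it ran from IFI35 through RSAD2, IFI6, IFIT3, IFIT2, IFIT5, IFI44 and IFIT1 to IFI27 and IFI44L. RSAD2 and IFI6, IFIT3 and IFIT2, and IFI44 and IFIT1 overlapped between libraries and have no order beyond their spread, and the last 2 genes were both listed at 0. In sh-CEBPG#3 cells it ran from IFI6 through IFIT3, IFI35, IFIT2, IFIT1, IFI44, IFI27, RSAD2 and IFIT5 to IFI44L. There IFI27 and RSAD2 overlapped, at 6.02 to 6.60 FPKM and 6.02 to 6.25 FPKM, and the other neighbours did not. Relative to all 16490 genes, the mean percentile of IFI6 was 40.0 in sh-NC cells and 99.0 in sh-CEBPG#3 cells, and that of IFI44L, the lowest of the 10 in sh-CEBPG#3 cells, was 40.2 there.

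Of the 10 genes, 4 are listed with more than 1 RefSeq row. IFI6 was carried by NM_002038, with 231 and 232 FPKM in sh-CEBPG#3 cells, which is 85.2% and 87.8% of the gene. NM_022872 added 35.5 and 27.7 FPKM and NM_022873 added 4.55 and 4.45 FPKM. IFIT1 was carried by NM_001548 at 90.3% and 89.1%. IFI27 was divided between NM_001130080 (57.6% and 53.6%) and NM_001288956 (41.7% and 45.1%), and its row NM_001288959 has no value in any library. In the sh-NC libraries NM_002038 of IFI6 had 1.99 and 1.72 FPKM. IFIT1 was listed there through NM_001270930 alone in replicate 1 and through NM_001548 alone in replicate 2, and every IFI27 row with values was listed at 0.

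The rows of IFIT3 differed between libraries of the same group while their sum did not. NM_001549 had 33.2 FPKM in replicate 1 and 21.6 FPKM in replicate 2 of sh-CEBPG#3, or 73.9% and 51.3% of the gene. NM_001289758 had 0.294 and 7.01 FPKM, and NM_001031683 had 11.4 and 13.5 FPKM. The gene sum of 44.9 and 42.2 FPKM was thus more alike between the libraries than the values of the first 2 rows, and with the most abundant row in place of the sum the log2 difference of IFIT3 was 3.62.

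Position in the genome was not used to choose the genes. By the RefSeq gene table on GRCh38.p14, the 4 IFIT genes lie on chromosome 10 in the order IFIT2 (chr10:89302046-89309271), IFIT3 (chr10:89327997-89340968), IFIT1 (chr10:89392623-89406487) and IFIT5 (chr10:89414568-89420997). IFI44L (chr1:78620448-78646145) and IFI44 (chr1:78649789-78664078) are neighbours, and IFI6 (chr1:27666064-27672192) lies elsewhere on chromosome 1. IFI27 (chr14:94105894-94116690), IFI35 (chr17:43006784-43014456) and RSAD2 (chr2:6865885-6898239) are on chromosomes of their own, which gives 6 loci. The nearest gene with a value on each side was taken, 12 genes in all, of which 11 were tested and TTLL7 was not.

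Of the 11 flanking genes tested, 1 was called higher and none lower, against 2.33% and 1.04% of all genes, and their median log2 difference was -0.061 beside the -0.038 of all genes. The one called was CMPK2, a mitochondrial nucleotide kinase gene next to RSAD2, itself known as interferon-induced. It had 4.91 and 4.96 FPKM in sh-NC cells and 30.8 and 27.4 FPKM in sh-CEBPG#3 cells (log2 difference 2.34, standard error 0.088, adjusted p = 5.7e-08 in limma), a larger log2 difference than that of RSAD2 itself. RNF144A on the other side of RSAD2 fell from 5.26 and 5.30 FPKM to 3.45 and 3.39 FPKM (-0.51, adjusted p = 0.00202 in limma).

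LIPA encodes lysosomal acid lipase and lies on the strand opposite to the IFIT genes. It extends over IFIT2, IFIT3 and IFIT1 but over only 112 bases of IFIT5. LIPA had 37.9 and 39.2 FPKM in sh-NC cells and 68.8 and 62.5 FPKM in sh-CEBPG#3 cells (0.75, adjusted p = 4.72e-05 in limma). PANK1, a pantothenate kinase gene beyond IFIT5, had 2.92 and 2.32 FPKM and then 2.32 and 2.04 FPKM (-0.18, adjusted p = 0.254 in limma). IFI27 lies between its paralogs IFI27L1 and IFI27L2. IFI27L1 had 2.16 and 1.86 FPKM and then 1.46 and 1.45 FPKM (-0.30, adjusted p = 0.0689 in limma), and IFI27L2 had 3.88 and 3.44 FPKM and then 4.32 and 4.23 FPKM (0.18, adjusted p = 0.179 in limma).

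VAT1, which lies 150 bases from IFI35, fell from 91.3 and 104 FPKM to 71.7 and 69.9 FPKM (-0.45, adjusted p = 0.00135 in limma), whereas the ribosomal protein gene RPL27 on the other side did not pass (-0.061, adjusted p = 0.576 in limma). Beside IFI6, the SRC family kinase gene FGR had 5.21 and 2.89 FPKM and then 9.98 and 7.33 FPKM (0.96, adjusted p = 0.0033 in limma), with libraries of a group that differ, and without the filter it did not pass (adjusted p = 0.0652). FAM76A did not pass (-0.10, adjusted p = 0.57). DNAJB4, the nearest listed gene before IFI44L at 602483 bases, did not pass either (0.38, adjusted p = 0.119 in limma).

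**Figure D2:**
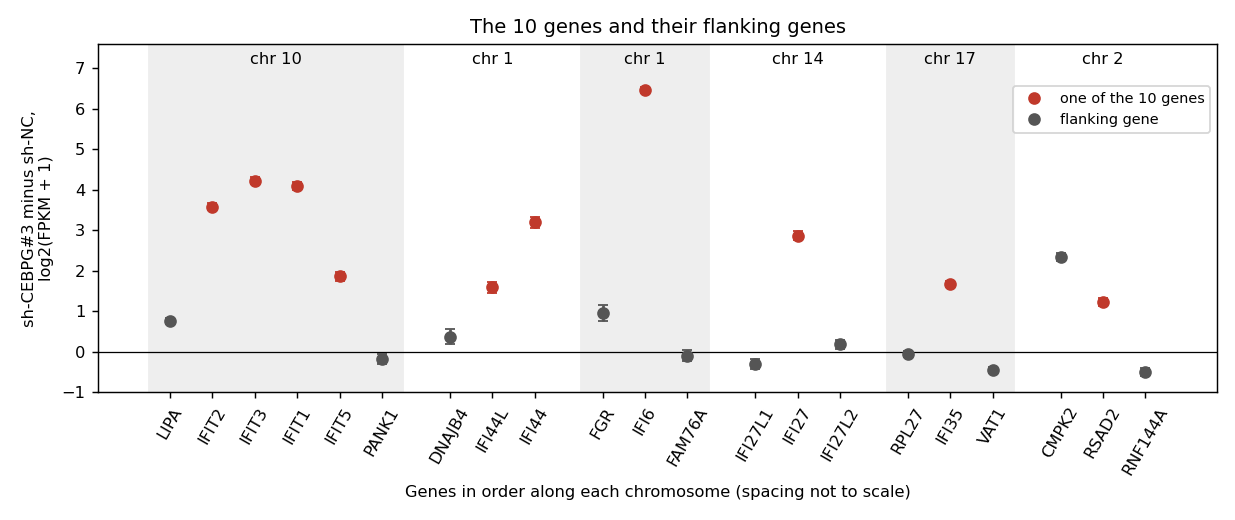
Difference between sh-CEBPG#3 and sh-NC in log2(FPKM + 1) with its standard error (bars) for the 10 genes (red) and the 11 flanking genes tested (grey), in their order along each chromosome. The red points lie between 1.22 and 6.47, and among the grey points only CMPK2 at 2.34 lies above 1.

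Overlapping annotation limits some of these values, since the strand of the reads is not stated in the sources used here. In GENCODE v44 on hg38, 351 exonic bases of RSAD2 (6.2%) are shared with CMPK2 on the opposite strand, and 65 bases of IFIT2 and 94 bases of IFIT3 with LIPA. IFI6 shares 216 exonic bases (23.1%) with LINC02574, and IFIT2 shares 524 (12.1%) with ENSG00000232110, long noncoding RNA genes on the same strand. How the reads in these stretches were assigned was not tested.

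Among other genes whose names or sequences are like those of the 10, IFIT1B was not listed and 3 of 5 tested were called higher, beside 2.33% of all genes. This list was chosen with earlier results of these data known, so the count is a description and no independent test. IFI16, a sensor of DNA, had 2.09 and 2.08 FPKM in sh-NC cells and 9.07 and 9.02 FPKM in sh-CEBPG#3 cells (log2 difference 1.70, adjusted p = 8.49e-07 in limma). IFI30, a lysosomal thiol reductase, had 22.5 and 21.0 FPKM and then 86.5 and 83.5 FPKM (1.92, adjusted p = 6.84e-08 in limma). IFIH1, which encodes the RNA sensor MDA5, had 1.47 and 1.92 FPKM and then 9.17 and 8.50 FPKM (1.87, adjusted p = 1.42e-06 in limma). The 2 that were not called were IFI27L1 and IFI27L2.

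The genes that carry the interferon signal to these promoters were followed by role. Of 28 ligands, receptors, kinases and regulators, 18 were listed and 17 tested, of which 4 were called higher and none lower, beside 2.33% and 1.04% of all genes. The median log2 difference of the 17 genes was 0.12, beside -0.038 over all genes. Earlier results of these data were known when this list was drawn up, so its counts are no independent test. Of the 10 interferon genes on the list, IFNB1 was the one listed, with 0.0818 and 0 FPKM in sh-NC cells and 0.0730 and 0.188 FPKM in sh-CEBPG#3 cells, below the filter. The groups overlap for IFNB1, and protein was not measured.

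None of the 5 receptor chains tested was called, although 3 had an adjusted p under 0.05 below the fold limit. IFNAR1 had a log2 difference of 0.054 (adjusted p = 0.673 in limma) and IFNAR2 of 0.28 (adjusted p = 0.0284), while IFNGR2, a chain of the interferon gamma receptor, had 0.72 (adjusted p = 0.00126). The kinases JAK1 (-0.066, adjusted p = 0.552 in limma), TYK2 (0.00099, adjusted p = 0.992) and JAK2 (0.34, adjusted p = 0.0184) were not called either.

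The ISGF3 subunits STAT2 and IRF9 were called higher. STAT2 rose from 12.1 and 11.9 FPKM to 36.8 and 35.3 FPKM (log2 difference 1.51, standard error 0.076, adjusted p = 4.61e-07 in limma). IRF9 rose from 3.99 and 4.13 FPKM to 31.4 and 29.9 FPKM (2.64, standard error 0.083, adjusted p = 1.65e-08 in limma). Both are themselves known to be interferon-induced.

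Of the other interferon regulatory factors, IRF7 rose from 1.09 and 0.598 FPKM to 4.24 and 5.46 FPKM (1.67, adjusted p = 2.43e-05 in limma). IRF3 (-0.097, adjusted p = 0.336 in limma) and IRF1 (0.12, adjusted p = 0.265) did not pass. Of the negative regulators, USP18, which removes ISG15 from proteins and restrains the receptor, rose from 2.57 and 3.02 FPKM to 16.6 and 15.9 FPKM (2.19, adjusted p = 1.54e-07 in limma). SOCS1 fell from 16.5 and 16.8 FPKM to 12.1 and 12.2 FPKM (-0.42, adjusted p = 0.0019 in limma) without reaching the fold limit, and SOCS3 (0.070, adjusted p = 0.659) and PIAS1 (0.034, adjusted p = 0.772) did not pass.

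**Figure D3:**
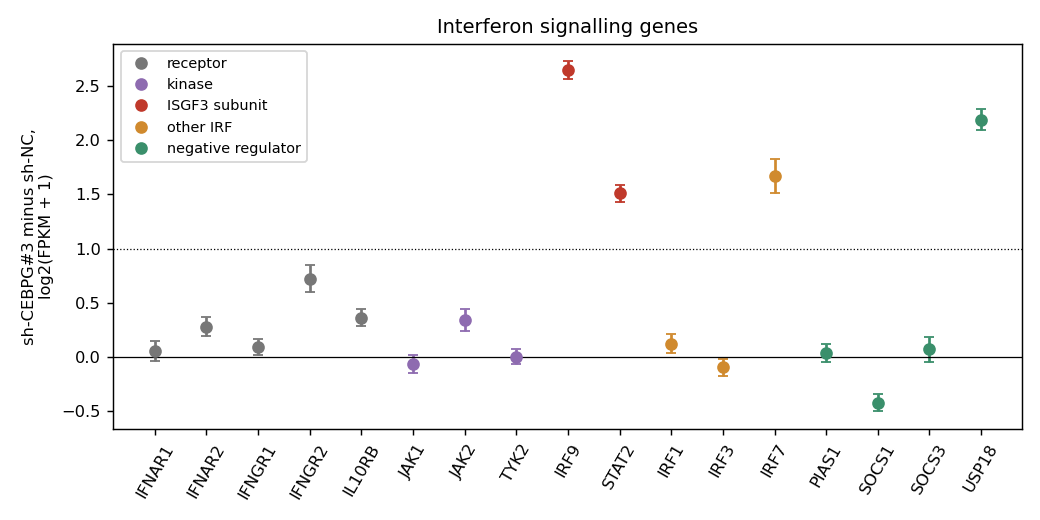
Difference between sh-CEBPG#3 and sh-NC in log2(FPKM + 1) with its standard error (bars) for the 17 interferon signalling genes tested, coloured by role, with a dotted line at 1. STAT2 (1.51), IRF9 (2.64), IRF7 (1.67) and USP18 (2.19) lie above the line and the receptor chains and kinases below it.

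The 5 genes outside the group whose values over the 4 libraries were most like the mean of the 10 (Euclidean distance of centred log2(FPKM + 1) values, 0.306 to 0.438) were CXCL8, FCER2, EBI3, MX2 and IRF9. Their log2 differences lay between 2.64 for IRF9 and 3.33 for CXCL8. With 2 libraries a group this likeness reflects little more than a similar difference between the groups.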

How the data were processed

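RNA-seq libraries of MV4-11 cells (2 sh-NC, 2 sh-CEBPG#3) were analysed. Reads were filtered and mapped by the authors (HISAT2 2.0.5 and hg38 per the submitters' processing notes), who deposited FPKM values for each RefSeq row and library. The program that computed FPKM is not given in the sources used here. Rows were summed by symbol, and 164 rows without a symbol stand by themselves. The study's test takes counts, so limma 3.58.1 in R 4.3.3 (eBayes with a trend, no covariate) was fitted to log2(FPKM + 1) of the 12142 genes averaging 0.5 FPKM or more, and p-values were adjusted by Benjamini-Hochberg over all of them. Of 1027 rows under 0.06 FPKM in sh-NC cells, at most 1.27% shared a ratio between libraries, so whole reads were not recovered and no depth or counting interval is given. For 2 against 2 libraries the smallest two-sided p of an exact permutation test is 0.333, so p-values rest on limma's shared variance and on the spread between these libraries, which may be technical.

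The 10 genes and all gene lists were chosen with earlier results of these data known. Items withheld from the lists are not reported here. Genes named are the 10 members, CEBPG, the genes of the lists, the flanking genes and the 5 most alike. Motifs were searched in RefSeq promoter windows with Python 3.11.15. The fit was checked on simulated data. Alternatives covered the pseudocount, filter, scaling, replicate block, single rows, thresholds and each library left out.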

Additional observations from a re-analysis of the deposited data

How the results depend on the processing

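The 10 genes were chosen for being higher, so their calls, 10 of 10 under each of the 15 alternatives, are no sign of stability. With pseudocounts of 0.1 and 0.01 FPKM, 469 and 477 genes were called higher in place of 283 (310 and 342 lower in place of 126), the median log2 difference of the 10 genes was 4.64 and 5.30 in place of 3.03, and 2 flanking genes were called in each case in place of 1, FGR (1.12 and 1.14) joining CMPK2. Without the fold limit, 2244 of 12142 genes, 8 of 17 pathway genes and 3 of 11 flanking genes were higher, by construction. At this setting 2884 genes, 1 pathway gene and 2 flanking genes were lower. With each row by itself the median of the 10 genes was 2.68. With each library left out it ranged from 2.94 to 3.13, the count of all genes from 266 to 333, and the count of flanking genes from 1 to 2. FGR was the second without sh-NC replicate 1 (1.30) and without sh-CEBPG#3 replicate 2 (1.16). In these fits the lone library is assumed to vary like the others. FGR did not pass with no filter (adjusted p = 0.0652 in limma) or by row (adjusted p = 0.125). What causes these changes was not tested. The other IFI-named genes, FGR, CMPK2 and CEBPG were put under the alternatives after the data were seen. Numbers 1 and 2 recur in both groups. The difference between replicates 1 and 2 in sh-NC had a correlation of 0.061 over the 12142 genes with that in sh-CEBPG#3. No strong shift common to same-numbered libraries was thus seen. Each group gives a single such difference, so whether a number marks a shared infection or preparation was not tested. With the replicate block 289 genes were called higher. Depth is unknown, so how it limits the low sh-NC values was not tested.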
